A study of Mus musculus with 12 samples.

Results

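The proteasome is the large protease that degrades most short-lived and damaged proteins after they have been tagged with ubiquitin, and its subunit genes are described here across 12 mouse liver libraries. The members were the gene symbols made of Psma, Psmb, Psmc, Psmd, Psme, Psmf or Psmg and a number, leaving out Psmd10, with a value above 1 TPM in at least 3 of the 12 libraries. TPM is a relative transcript level that is divided by transcript length, so levels of different genes can be compared. Of 49 matching symbols 45 were members, out of 12120 genes that passed the same filter and 31253 symbols listed. The rule itself uses no measured difference, but it was set with earlier results of these data known. Besides Psmd10, 3 matching symbols fell outside: Psma8, an alpha subunit known from testis, was above 1 TPM in 2 libraries, Psme2b in 1 library, and Psmb11, the catalytic subunit of the thymus, in 0. The members lay far inside the filter, because all 45 were above 1 TPM in all 12 libraries and the lowest single value was 7.31 TPM.

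The livers came from male C57BL6 mice that were wild type (WT) or carried the CUGBP1 S302A knock-in, in which alanine takes the place of a serine in CUGBP1, an RNA-binding protein made from the gene Celf1. The sources used here do not say whether the knock-in animals carried 1 or both altered alleles. Mice of each genotype were left untreated or were injected at 3 weeks of age with diethylnitrosamine (DEN), which alkylates DNA and causes liver tumours. The dose was 50 µg DEN for each g of body weight. The labels give an age at sacrifice of 33 to 41 weeks, while another label field gives sacrifice at 30 to 38 weeks. The latter was read here as weeks after treatment. This gave 4 groups of 3 libraries: WT_Ctrl and S302A_Ctrl, the untreated wild-type and knock-in livers, and WT_DEN and S302A_DEN, the livers of mice given DEN. Whether the 3 libraries of a group came from 3 animals is not stated, so the p-values reflect no more than sample-to-sample spread, which may be technical. Nor do the labels say whether tumour or surrounding liver was taken after DEN. The knock-in is a change of protein sequence that the level of Celf1 mRNA does not check.

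The proteasome consists of a barrel-shaped core and caps that bind its ends. The core is built from alpha subunits (Psma genes), which form the outer rings and the gate, and beta subunits (Psmb genes), which form the inner rings. Psmb5, Psmb6 and Psmb7 encode the beta subunits with protease activity, and interferon can replace them with the inducible subunits encoded by Psmb8, Psmb9 and Psmb10, which gives the immunoproteasome and favours peptides for MHC class I molecules. The main cap, the regulatory particle, unfolds substrates with ATPases (Psmc genes) and recognizes ubiquitin through non-ATPase subunits (Psmd genes). Other caps are the activators (Psme genes), and Psmf1 encodes an inhibitor of the core. Psmg genes, Psmd5 and Psmd9 encode chaperones that assemble the particle. By these roles the members were 7 alpha, 7 constitutive beta, 3 inducible, 6 ATPase and 11 non-ATPase subunits, 4 activators, 1 inhibitor and 6 chaperones.

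Transcription of these genes is known to draw on different elements, and RefSeq promoter windows (GRCm38.p6, 250 bases before to 50 after a start site) were found for 38 of the 45 members, in 41 windows. The 4 sequences that follow run from 120 bases before the annotated start site to base 30 of the transcript, and they are shown because Psmb9, Psmb8 and Psmg4 each gave the smallest p of the members in at least 1 contrast and Psmb5 is the constitutive counterpart of Psmb8. Capitals mark matches to 5 motifs, each searched on both strands: TGACNNNGC for NRF factors, GAAA, any pair of bases and GAAA again for the interferon-stimulated element, TTCNNNGAA for the interferon gamma activated site, CCAAT for NF-Y and GGGCGG for Sp1.
Psmb9 (chr17:34187301-34187450, minus strand): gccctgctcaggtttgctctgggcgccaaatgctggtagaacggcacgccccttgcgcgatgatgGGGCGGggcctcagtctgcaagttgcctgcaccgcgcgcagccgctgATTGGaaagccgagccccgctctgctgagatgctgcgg
Psmb8 (chr17:34198075-34198224, plus strand): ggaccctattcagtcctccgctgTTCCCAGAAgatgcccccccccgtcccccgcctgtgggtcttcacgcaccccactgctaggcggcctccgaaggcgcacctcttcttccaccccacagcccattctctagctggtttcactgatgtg
Psmb5 (chr14:54617966-54618115, minus strand): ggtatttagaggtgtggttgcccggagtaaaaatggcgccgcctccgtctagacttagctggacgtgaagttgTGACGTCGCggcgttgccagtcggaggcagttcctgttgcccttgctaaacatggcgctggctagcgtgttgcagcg
Psmg4 (chr13:34162844-34162993, plus strand): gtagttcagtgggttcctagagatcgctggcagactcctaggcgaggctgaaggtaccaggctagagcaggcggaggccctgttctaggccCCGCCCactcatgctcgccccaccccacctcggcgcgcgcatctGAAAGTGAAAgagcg

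In these windows the capitals of Psmb9 were a GC box starting at position -55 and a CCAAT box at -8, counted from the RefSeq start site. Psmb8 had an interferon gamma activated site at -97, Psmb5 an NRF element at -47, and Psmg4 a GC box at -29 and an interferon-stimulated element at position 16. Over all member windows the interferon-stimulated element stood in 12.2% (5 genes: Psmb3, Psmd4, Psmd9, Psme1 and Psmg4), against 3.44% of all 32851 windows. The GC box stood in 56.1% of member windows against 35.7%, and the CCAAT box in 29.3% against 37.4%. The NRF element stood in 14.6% against 12.4% (6 genes: Psmb5, Psmb6, Psmc6, Psmd12, Psmd9 and Psme4), and the interferon gamma activated site in 7.32% against 8.3%. A match is a match of letters only, the motifs can overlap, and these shares carry no test.

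The members' levels differed by role, though the ranges of some roles overlapped. Averaged over the 12 libraries, the 14 constitutive core genes ranged from 60.2 TPM (Psma5) to 188 TPM (Psma4) with a median of 133 TPM. The 17 regulatory particle genes ranged from 38.7 TPM (Psmd13) to 89.9 TPM (Psmd4) with a median of 68.7 TPM. Below both lay the 6 chaperone genes, with a median of 19.1 TPM, and the inducible genes Psmb8, Psmb10 and Psmb9, at 24.2, 23.2 and 18.4 TPM. The 4 activators were spread widely, from 25.2 TPM (Psme3) to 127 TPM (Psme1). The highest means after Psma4 belonged to Psmb7 (173 TPM) and the lowest to Psmf1 (10.7 TPM) and Psmd9 (11.7 TPM). This order was nearly the same in every library: Spearman's rho over the members lay between 0.924 and 0.995 in the 66 pairs of libraries, as a description over genes that share each library's scaling.

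**Figure D1:**
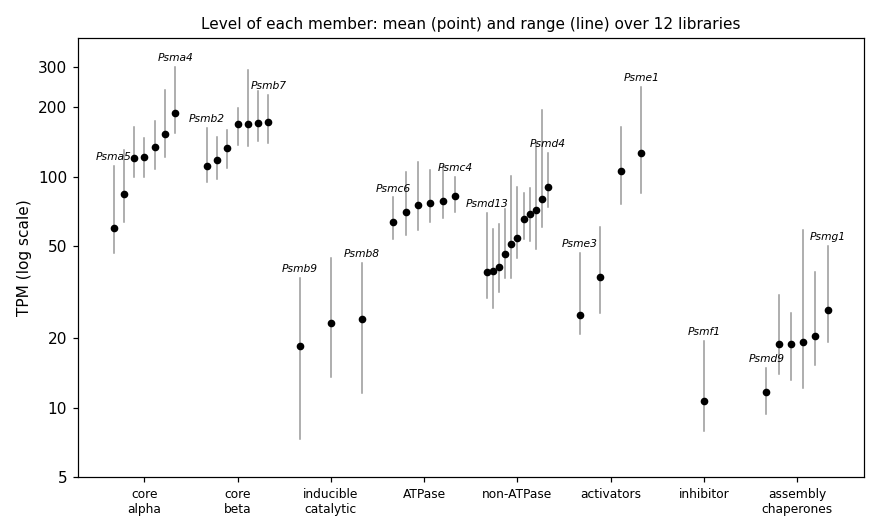
Level of each of the 45 members by role, on a logarithmic TPM axis, with the point at the mean and the line from the lowest to the highest of the 12 libraries; the lowest and highest member of each role are named. Constitutive core genes sit highest (median 133 TPM), inducible genes, chaperones and Psmf1 lowest.

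One library stood apart and bears on every comparison with the DEN-treated knock-in livers. Because the 4 groups share 1 estimate of spread, it also bears on the standard errors of the other comparisons. In S302A_DEN replicate 3 the 45 members made up 0.516% of the TPM total, against 0.289% to 0.403% in the other 11 libraries. Its scaling factor by median of ratios, taken over the genes above 1 TPM in every library, was 1.69 against 0.820 to 1.18. Summed marker levels were higher there too: 7 of 14 leukocyte markers were testable and the list summed to 81.3 TPM against 15.02 to 32.1 TPM elsewhere, with Cd8a and Ms4a1 among those at the floor of 1 in all libraries. The 12 macrophage markers summed to 826 TPM against 115 to 297 TPM. All 12 hepatocyte markers were measured, as liver tissue requires, and their sum of 53883 TPM lay within the range of the other libraries (40436 to 88547 TPM). The part of these differences in the members' levels was not tested, and in bulk tissue a change in cell makeup and a change of RNA per cell cannot be told apart.

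No member passed the test in any comparison. Each gene was tested as log2(TPM + 1) with limma in 1 model of the 4 groups, with Benjamini-Hochberg adjustment across all 12120 genes and a threshold of 0.05. Across the members, the standard error of a log2 difference between 2 groups ranged from 0.17 to 0.42 with a median of 0.22.

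DEN in wild-type livers went with small positive differences. Of the 45 members 0 passed, against 0.132% of all tested genes, and 0 had an unadjusted p under 0.05, against 6.89% of all tested genes with a higher and 1.37% with a lower level. Without S302A_DEN replicate 3, which enters the shared spread, the standard error of Psmd8 went from 0.32 to 0.11 (limma adjusted p = 0.0967). Psmd5, Psme3 and Psmg4 then had unadjusted limma p of 0.041, 0.043 and 0.042. The share of all tested genes under 0.05 in that setting is not given here. As deposited, 39 members were higher and 6 lower in WT_DEN than in WT_Ctrl with a median log2 difference of 0.14, but after median-of-ratios scaling 17 were higher with a median of -0.04 and after quantile normalization 12 with a median of -0.11. The median of all tested genes was 0.13, close to that of the members, and 70.7% of them were higher. The 3 libraries of the groups did not overlap for 6 members, all higher after DEN: Psmd13, Psmd3, Psmd5, Psmd7, Psmd8 and Psme3. Here and in the other comparisons, this separation of members was read from TPM as deposited and not after scaling, which can change it. Of all tested genes 21.7% were separated in that direction and 3.21% in the other.

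DEN in knock-in livers went with larger positive differences that rested largely on replicate 3. Of the members 0 passed, against 0.619% of all tested genes, and 8 of 45 had an unadjusted p under 0.05 with a higher level, against 13.8% of all tested genes, and 0 with a lower level, against 2.53%. All 45 were higher in S302A_DEN than in S302A_Ctrl, with a median log2 difference of 0.41 beside 0.27 for all tested genes, of which 79.3% were higher. Without S302A_DEN replicate 3, the median was 0.14 with 39 members higher, beside 0.00 for all tested genes. After median-of-ratios scaling of all libraries it was 0.10 with 30 higher. By role the medians were 0.24 for the constitutive core, 0.43 for the regulatory particle, 0.52 for the chaperones, 0.53 for the inducible genes and 0.45 for the activators, and after median-of-ratios scaling they were -0.07, 0.12, 0.22, 0.23 and 0.14, so that of these roles the core changed sign. The groups did not overlap for 8 members, all higher after DEN: the ATPase genes Psmc2, Psmc4 and Psmc5, the non-ATPase genes Psmd8 and Psmd13, the activator Psme3 and the chaperones Psmg3 and Psmg4. Of all tested genes 15.8% were separated in that direction and 2.68% in the other.

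Scaling by median of ratios centres the typical gene of each library, so an all-gene median near 0 is built into it. With that scaling the median difference of all tested genes went from 0.13 to -0.02 for DEN in wild type and from 0.27 to 0.01 in the knock-in. After that scaling the members' medians stood at -0.04 and 0.10 beside them. No member had its genotypes move in opposite directions with DEN in every library.

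The knock-in in untreated livers went with slightly lower member levels. Of the 45 members 0 passed, against 0.033% of all tested genes, and 1 (Psmb9) had an unadjusted p under 0.05 with a lower level, against 0.916%, and 0 with a higher level, against 0.561%. Without S302A_DEN replicate 3, which enters the shared spread, Psmb8 also had an unadjusted limma p of 0.041. The all-gene share in that setting is not given here. A lower mean in S302A_Ctrl than in WT_Ctrl was found for 42 members with a median of -0.13, beside -0.07 for all tested genes, of which 32.5% were higher. After median-of-ratios scaling 32 members were lower with a median of -0.04. The groups did not overlap for 5 members, all lower in the knock-in (Psma2, Psmb4, Psmb7, Psmb9 and Psmg3), against 5.27% of all tested genes, with 1.69% separated in the other direction. The 3 inducible genes had a median of -0.57, the 14 constitutive core genes one of -0.11.

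After DEN the members showed no direction between the genotypes that held without 1 library. Of the members 0 passed, against 0.38% of all tested genes, and 0 had an unadjusted p under 0.05, against 2.93% of all tested genes with a higher and 4.9% with a lower level. With all libraries 34 members were higher in S302A_DEN than in WT_DEN with a median of 0.10, beside 60.0% of all tested genes. Without S302A_DEN replicate 3 the direction turned, with 5 higher and a median of -0.13, beside -0.20 for all tested genes. The smallest p belonged to Psmg2, a chaperone of the alpha ring, with a log2 difference of 0.35 ± 0.26 (SE, n = 3 a group; limma adjusted p = 0.834), followed by Psmc2 at 0.25 and Psme3 at 0.28. Without S302A_DEN replicate 3 these differences were 0.03, 0.10 and -0.016. No member's groups were separated, against 3.23% of all tested genes in the higher and 6.19% in the lower direction.

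The interaction, which asks whether DEN acted differently in the genotypes, was passed by 0 members against 0.0413% of all tested genes, and 0 had an unadjusted p under 0.05, against 2.23% of all tested genes above 0 and 2.83% below. It was above 0 for 43 members, beside 66.6% of all tested genes. Its median over members was 0.27 beside 0.14 for all tested genes, and 0.01 without S302A_DEN replicate 3, and its smallest p-values after that of Psmb9 belonged to Psmc2 (0.38, or 0.23 without that library) and Psmg2 (0.49, or 0.16). Averaged over genotypes, the DEN effect was passed by 0 members against 1.34% of all tested genes, and 9 had an unadjusted p under 0.05 with a higher level, against 17.2%, and 0 with a lower level, against 2.24%. All 45 were above 0, beside 80.7% of all tested genes, though only 24 were after median-of-ratios scaling. After Psmg4 the smallest p-values belonged to Psmb8, with 0.66 ± 0.21 (SE; limma adjusted p = 0.143), and Psmg3, with 0.40 ± 0.15 (0.188). The average knock-in effect was passed by 0 members against 0.0165%, and 0 had an unadjusted p under 0.05, against 1.21% of all tested genes above 0 and 3.19% below. It was above 0 for 16 members, beside 49.5% of all tested genes, with Psmb9 (-0.50), Psmb8 (-0.29) and Psmg4 (-0.18) at the smallest p.

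**Figure D2:**
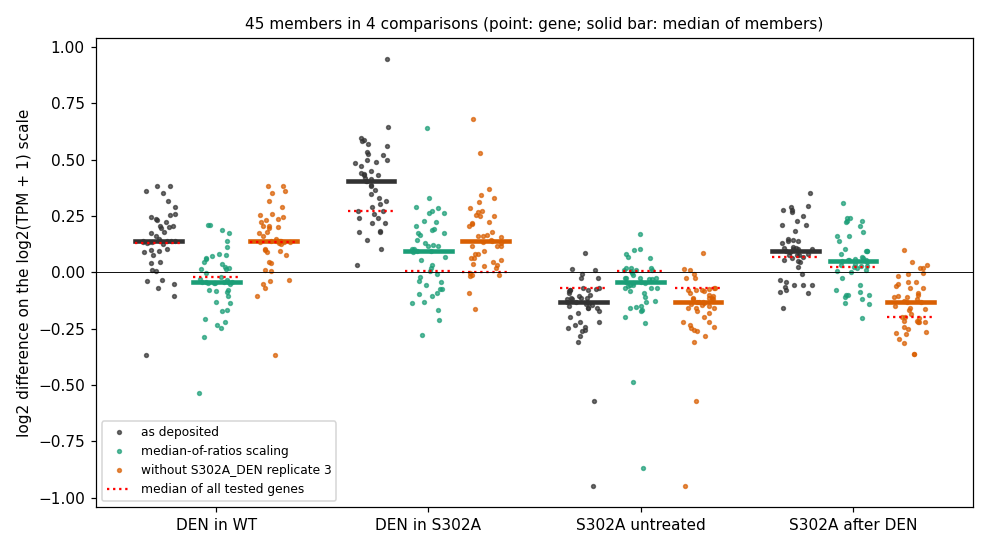
Log2 differences of the 45 members (points) in 4 comparisons on the log2(TPM + 1) scale, as deposited, after median-of-ratios scaling and without S302A_DEN replicate 3; solid bars are member medians and dotted lines medians of all tested genes. For DEN in S302A the median moves from 0.41 as deposited to 0.10 after scaling and 0.14 without replicate 3, while for DEN in WT scaling takes it from 0.14 to -0.04 and for S302A after DEN leaving out replicate 3 takes it from 0.10 to -0.13.

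**Figure D3:**
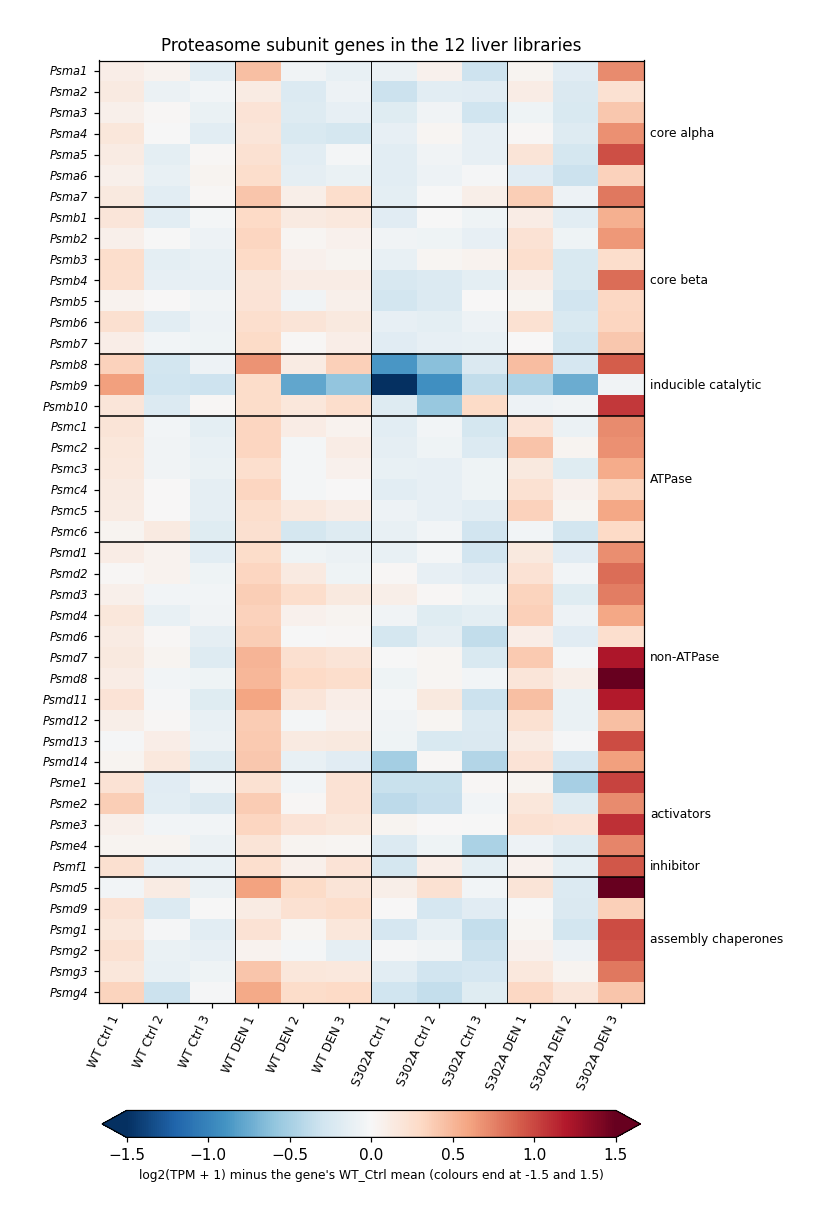
Log2(TPM + 1) of each member in each library minus its mean in WT_Ctrl, ordered by role, in columns of 3 libraries a group. S302A_DEN replicate 3 is the reddest column, WT_DEN replicate 1 the next, and the inducible genes Psmb8 and Psmb9 are the bluest rows in S302A_Ctrl.

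Psmb9 and Psmb8, the inducible counterparts of Psmb6 and Psmb5, were with Psmd5 the members that varied most relative to the other members of their library. Psmb9 stood at 36.5, 18.9 and 18.7 TPM in WT_Ctrl, 7.31, 11.96 and 17.9 in S302A_Ctrl, 28.7, 13.2 and 15.2 in WT_DEN, and 16.7, 13.6 and 22.5 in S302A_DEN. The 3 untreated knock-in libraries lay below the 3 untreated wild-type libraries, but by a narrow step from 17.9 TPM to 18.7 TPM, and WT_Ctrl replicate 1 stood well above the other libraries of its group. The log2 difference was -0.95 ± 0.38 (SE, n = 3 a group), with a limma adjusted p of 1. With DEN the signs differed between genotypes: in wild type the mean was lower after DEN (log2 difference -0.37 ± 0.38), in the knock-in higher (0.53 ± 0.38, or 0.34 without S302A_DEN replicate 3), and the interaction of 0.89 ± 0.53 had a limma adjusted p of 0.975.

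Psmb8 stood at 28.3, 17.97 and 20.9 TPM in WT_Ctrl, 11.6, 13.95 and 18.7 in S302A_Ctrl, 35.7, 23.96 and 28.5 in WT_DEN, and 30.8, 18.3 and 42.2 in S302A_DEN. Its log2 difference for DEN was 0.95 ± 0.30 (SE, n = 3 a group; limma adjusted p = 0.176) in the knock-in, the largest of any member as deposited, and 0.38 ± 0.30 (adjusted p = 0.866) in wild type. The knock-in value was 0.64 (adjusted p = 0.0858) after median-of-ratios scaling and 0.68 (0.236) without S302A_DEN replicate 3. The knock-in libraries overlapped, since the lowest DEN value of 18.3 TPM lay under the highest untreated value of 18.7 TPM. In untreated livers the knock-in was lower by a log2 difference of -0.57 ± 0.30 (adjusted p = 1), where 18.7 TPM in a knock-in library lay above 18.0 TPM in a wild-type library. Leaving out S302A_DEN replicate 2, the lowest of its group, brought Psmb8 past the threshold for DEN in the knock-in with a log2 difference of 1.26 and a limma adjusted p of 0.0377, a setting in which 2.78% of all tested genes passed. In that setting it also passed for the average DEN effect, together with Psmd7, beside 8.59% of all tested genes.

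Psmb10, which replaces Psmb7, stood at 23.6, 17.9 and 21.1 TPM in WT_Ctrl, 18.1, 13.6 and 25.6 in S302A_Ctrl, 25.4, 23.4 and 25.04 in WT_DEN, and 19.7, 20.02 and 44.4 in S302A_DEN. Its groups overlapped in both genotypes, and S302A_DEN replicate 3 stood well above the rest, the next highest library being at 25.6 TPM. The log2 difference for DEN was 0.24 ± 0.31 in wild type and 0.47 ± 0.31 in the knock-in (limma adjusted p = 0.941 and 0.417). Without that library the knock-in value was 0.10, and after median-of-ratios scaling it was 0.16.

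The constitutive counterparts varied less. Psmb5, the chymotrypsin-like subunit, stood at 123, 119 and 115 TPM in WT_Ctrl, 98.1, 103 and 119.6 in S302A_Ctrl, 138, 115 and 125 in WT_DEN, and 122, 97.7 and 149 in S302A_DEN. Psmb6, the caspase-like subunit, stood at 149.8, 114 and 120.02 TPM in WT_Ctrl, 117, 114 and 121 in S302A_Ctrl, 152, 146 and 141 in WT_DEN, and 149, 109 and 159 in S302A_DEN. Psmb7, the trypsin-like subunit, stood at 183, 165 and 163 TPM in WT_Ctrl, 152, 157 and 157 in S302A_Ctrl, 207, 173 and 183 in WT_DEN, and 171, 141 and 226 in S302A_DEN. Groups overlapped for all of them under DEN in both genotypes, and their log2 differences for DEN were 0.08, 0.20 and 0.13 in wild type and 0.18, 0.22 and 0.18 in the knock-in, with standard errors of 0.18, 0.18 and 0.19. In the knock-in they were 0.03, 0.12 and -0.0016 without S302A_DEN replicate 3, and -0.13, -0.09 and -0.14 after median-of-ratios scaling, where the direction turned. Psmb7 alone of them was separated between untreated genotypes, with the highest knock-in library at 157 TPM and the lowest wild-type library at 163 TPM.

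Ratios within a library do not depend on its scaling. The ratio of Psmb8 to Psmb5 was 0.137 ± 0.019 (SD, n = 3) in S302A_Ctrl and 0.241 ± 0.049 in S302A_DEN, with 0.187 ± 0.040 in WT_Ctrl and 0.232 ± 0.026 in WT_DEN. Every DEN-treated knock-in library lay above every untreated one (lowest 0.188, highest untreated 0.157), with a two-sided exact permutation p of 0.1, the smallest that 3 against 3 libraries allow, and 0.5 after adjustment over the 10 ratio tests made. The ratio of Psmb9 to Psmb6 was 0.188 ± 0.048 in WT_Ctrl, 0.105 ± 0.043 in S302A_Ctrl, 0.129 ± 0.053 in WT_DEN and 0.126 ± 0.015 in S302A_DEN. Its groups overlapped under DEN in both genotypes, while the untreated knock-in libraries (0.148 at most) lay below the untreated wild-type ones (0.156 at least). Psmb8 and Psmb9 are neighbours on chromosome 17 but their ratio was not constant: Psmb8 stood at 0.777, 0.953 and 1.12 times Psmb9 in WT_Ctrl, 1.58, 1.17 and 1.05 times in S302A_Ctrl, 1.24, 1.81 and 1.87 times in WT_DEN and 1.84, 1.35 and 1.88 times in S302A_DEN. In wild type every DEN-treated library was above every untreated one (exact permutation p = 0.1, adjusted 0.5), while in the knock-in the groups overlapped (exact permutation p = 0.2, adjusted 0.6). These ratios were chosen after values of these data were known.

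**Figure D4:**
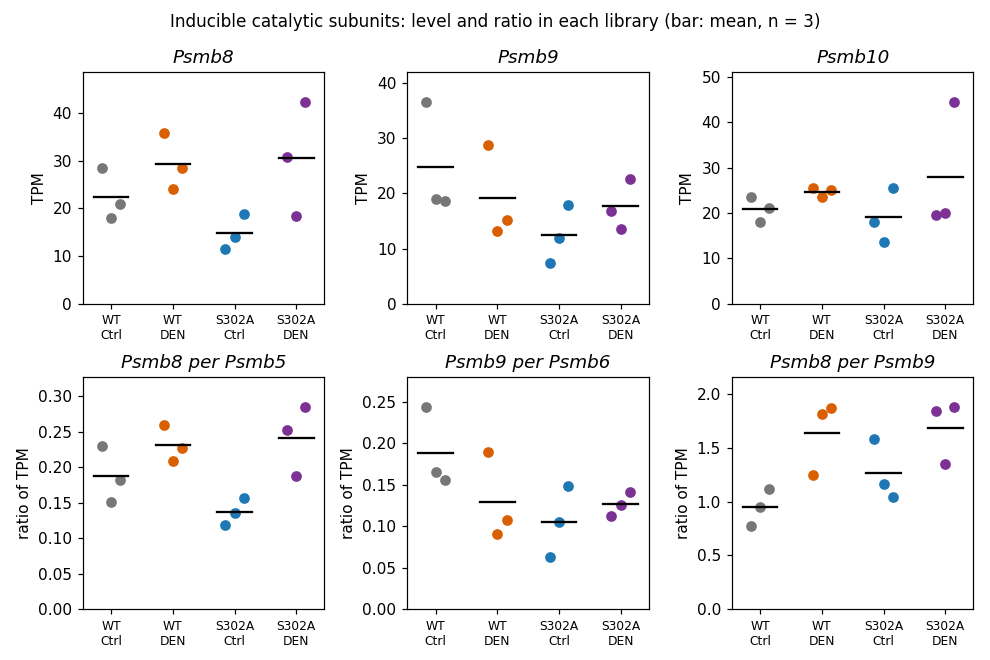
TPM of Psmb8, Psmb9 and Psmb10 (upper row) and the ratios Psmb8 to Psmb5, Psmb9 to Psmb6 and Psmb8 to Psmb9 (lower row) in each library by group, with a bar at the mean of 3 libraries; axes start at 0. S302A_Ctrl holds the lowest values of Psmb8 (11.6 TPM) and Psmb9 (7.31 TPM), and the ratio of Psmb8 to Psmb9 is lowest in WT_Ctrl.

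In GRCm38 (mm10) with the GENCODE M21 annotation, Psmb9 lies at chr17:34181987-34187764 on the minus strand and Psmb8 at chr17:34197721-34201454 on the plus strand, with the peptide transporter genes Tap1 (chr17:34187553-34197225) between them and Tap2 (chr17:34203527-34216321) beyond Psmb8. Psmb9 and Tap1 run away from each other and overlap by 212 bases, and their RefSeq promoter windows share 275 of 300 bases, which cover all but the last 5 bases of the Psmb9 sequence shown. The labels do not state that counting used strand, so how any reads in the overlap were divided between them is uncertain. Tap1 stood at 9.03, 5.78 and 5.60 TPM in WT_Ctrl, 3.92, 5.61 and 5.96 in S302A_Ctrl, 10.1, 6.69 and 7.10 in WT_DEN, and 8.61, 4.28 and 12.3 in S302A_DEN, and Tap2 at 13.2, 6.35 and 7.61 TPM in WT_Ctrl, 6.12, 7.96 and 6.85 in S302A_Ctrl, 11.5, 9.70 and 7.46 in WT_DEN, and 10.2, 8.62 and 14.8 in S302A_DEN. Neither passed a test, and both had their highest value in S302A_DEN replicate 3, unlike Psmb9, which was highest in WT_Ctrl replicate 1. Psmb10 lies apart at chr8:105935735-105938444. The promoter sequences shown for Psmb9 and Psmb8 lie wholly within the GENCODE spans of their genes. Their motif positions are counted from RefSeq start sites, so these motifs are not upstream of the GENCODE genes.

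The ATPase genes lay close together. Their log2 differences spanned -0.07 to 0.17 for DEN in wild type, where median-of-ratios scaling put all 6 below 0, 0.14 to 0.52 for DEN in the knock-in and -0.16 to -0.10 for the knock-in in untreated livers. Psmc2, an ATPase of the ring, stood at 72.9, 62.4 and 60.01 TPM in WT_Ctrl, 58.9, 62.1 and 56.1 in S302A_Ctrl, 81.6, 63.5 and 70.1 in WT_DEN, and 87.3, 67.00 and 105 in S302A_DEN. All 3 DEN-treated knock-in libraries were above the untreated ones, and the log2 difference was 0.52 ± 0.19 (SE, n = 3 a group; limma adjusted p = 0.234). It was 0.21 (adjusted p = 0.338) with median-of-ratios scaling alone and 0.37 (0.257) without S302A_DEN replicate 3 alone. With median-of-ratios scaling and without S302A_DEN replicate 3, a combination chosen after seeing the data, the difference was 0.36 with an adjusted p of 0.0316, in a setting where 7.11% of all tested genes passed. There Psmc2 also passed for the knock-in after DEN, beside 3.58% of all tested genes, and Psmg4 for DEN in the knock-in and for the average DEN effect, the latter beside 9.85%. Psmc3, an ATPase gene that starts 34511 bases past the end of Celf1 on chromosome 2, stood at 84.2, 72.2 and 69.99 TPM in WT_Ctrl, 69.6, 68.8 and 72.1 in S302A_Ctrl, 89.97, 73.7 and 78.96 in WT_DEN, and 83.3, 66.2 and 111 in S302A_DEN, and its genotype difference in untreated livers was -0.10 ± 0.20 (adjusted p = 1).

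Of the non-ATPase genes, Psmd2, a scaffold subunit that docks ubiquitin carriers, stood at 50.6, 51.5 and 47.6 TPM in WT_Ctrl, 50.3, 45.6 and 44.4 in S302A_Ctrl, 62.6, 54.99 and 47.5 in WT_DEN, and 58.2, 48.5 and 90.00 in S302A_DEN. Psmd4, a ubiquitin receptor, stood at 94.8, 77.4 and 80.8 TPM in WT_Ctrl, 80.7, 74.2 and 75.5 in S302A_Ctrl, 107, 87.9 and 86.8 in WT_DEN, and 108, 79.6 and 127 in S302A_DEN. Psmd14, the deubiquitinase that removes ubiquitin chains, stood at 39.8, 43.4 and 33.6 TPM in WT_Ctrl, 26.9, 39.1 and 28.3 in S302A_Ctrl, 51.7, 35.9 and 34.4 in WT_DEN, and 44.9, 32.2 and 59.6 in S302A_DEN. Groups overlapped in all comparisons of Psmd2, Psmd4 and Psmd14, and the log2 differences for DEN in the knock-in were 0.43, 0.42 and 0.50, or 0.18, 0.27 and 0.29 without S302A_DEN replicate 3. Psmd6, a lid subunit, had the third-smallest p for the knock-in in untreated livers, with a log2 difference of -0.26 ± 0.18 (adjusted p = 1). Psmd7, the partner of Psmd14 in the lid, stood at 47.5, 43.9 and 37.4 TPM in WT_Ctrl, 42.5, 43.7 and 36.3 in S302A_Ctrl, 61.2, 50.8 and 49.2 in WT_DEN, and 56.4, 41.99 and 100.3 in S302A_DEN. Its wild-type groups were separated by 47.5 TPM against 49.2 TPM, and its log2 difference was 0.32 ± 0.27 in wild type and 0.60 ± 0.27 in the knock-in (limma adjusted p = 0.873 and 0.299). Without S302A_DEN replicate 3 the knock-in value was 0.25. Psmd8, another lid subunit, stood at 68.7, 61.99 and 60.8 TPM in WT_Ctrl, 60.96, 65.2 and 61.8 in S302A_Ctrl, 90.5, 78.8 and 76.4 in WT_DEN, and 72.6, 67.7 and 195 in S302A_DEN. Replicate 3 of S302A_DEN was far above the rest, and without it the log2 difference for DEN in the knock-in went from 0.65 to 0.16, while in wild type it was 0.35 with separated groups.

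Of the activators, Psme1 and Psme2 encode the interferon-inducible ring that caps the core, and Psme3 and Psme4 encode the nuclear activators. Psme1 stood at 139.99, 107 and 116 TPM in WT_Ctrl, 94.9, 95.2 and 122 in S302A_Ctrl, 141, 117 and 140.1 in WT_DEN, and 124, 84.8 and 245 in S302A_DEN. Psme2 stood at 130.4, 90.2 and 85.98 TPM in WT_Ctrl, 76.4, 78.5 and 97.2 in S302A_Ctrl, 131, 102 and 117 in WT_DEN, and 113, 87.8 and 165 in S302A_DEN. They lie 5911 bases apart on chromosome 14, and the ratio of Psme1 to Psme2 stayed between 0.966 and 1.48, with group means of 1.21, 1.24, 1.14 and 1.18 in WT_Ctrl, S302A_Ctrl, WT_DEN and S302A_DEN. Their log2 differences for DEN in the knock-in were 0.40 and 0.49 as deposited (limma adjusted p = 0.471 and 0.337), and -0.01 and 0.25 without S302A_DEN replicate 3. Psme3 stood at 22.7, 20.8 and 20.9 TPM in WT_Ctrl, 22.1, 21.5 and 21.3 in S302A_Ctrl, 27.1, 24.8 and 24.3 in WT_DEN, and 25.4, 24.8 and 46.9 in S302A_DEN. Both DEN comparisons separated its groups by small steps, with log2 differences of 0.23 ± 0.23 and 0.50 ± 0.23 (SE, n = 3 a group; limma adjusted p = 0.902 and 0.304), the latter 0.21 without S302A_DEN replicate 3. For the knock-in after DEN its difference of 0.28 became -0.02 without S302A_DEN replicate 3. Psme4 stood at 37.1, 37.1 and 33.9 TPM in WT_Ctrl, 30.99, 34.5 and 25.7 in S302A_Ctrl, 41.2, 37.2 and 36.7 in WT_DEN, and 34.2, 31.5 and 60.6 in S302A_DEN, and the inhibitor gene Psmf1 at 11.6, 8.84 and 8.91 TPM in WT_Ctrl, 7.94, 10.5 and 8.65 in S302A_Ctrl, 11.8, 10.3 and 11.4 in WT_DEN, and 10.2, 8.68 and 19.5 in S302A_DEN. Both overlapped between all groups compared. Psme2b carries a name that marks it as a copy of Psme2, so how reads were divided between them is uncertain.

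Among the chaperones, Psmg4 had the smallest p of any member for DEN in wild type and for the average DEN effect. It stood at 21.9, 13.5 and 16.8 TPM in WT_Ctrl, 13.7, 13.1 and 14.9 in S302A_Ctrl, 25.8, 20.96 and 21.2 in WT_DEN, and 21.5, 19.5 and 23.1 in S302A_DEN. In the knock-in all DEN-treated libraries were above all untreated ones (lowest 19.5 TPM, highest untreated 14.9 TPM), whereas in wild type 21.9 TPM in an untreated library lay above 2 of the DEN-treated ones. The log2 difference was 0.38 ± 0.20 (SE, n = 3 a group; limma adjusted p = 0.674) in wild type, 0.59 ± 0.20 (0.203) in the knock-in and 0.48 ± 0.14 on average (0.118). After median-of-ratios scaling the knock-in value was 0.29 (adjusted p = 0.381) and the average 0.25 (0.275). S302A_DEN replicate 3 exceeded its other 2 replicates by 0.17 on the log2 scale for Psmg4, the least of the 45 members. Psmg3, its partner in alpha ring assembly, stood at 19.6, 15.9 and 16.5 TPM in WT_Ctrl, 15.3, 14.00 and 14.4 in S302A_Ctrl, 23.4, 19.5 and 19.3 in WT_DEN, and 19.4, 17.8 and 30.7 in S302A_DEN, with a log2 difference for DEN of 0.25 in wild type and 0.56 ± 0.22 in the knock-in (limma adjusted p = 0.254), the latter 0.33 without S302A_DEN replicate 3. Psmd9, at 13.3, 9.73 and 11.3 TPM in WT_Ctrl, 11.4, 9.34 and 10.01 in S302A_Ctrl, 12.5, 13.5 and 13.8 in WT_DEN, and 11.3, 9.64 and 14.8 in S302A_DEN, overlapped between all groups compared. Psmd5, a chaperone of the regulatory particle base, stood at 13.8, 15.5 and 13.3 TPM in WT_Ctrl, 15.1, 16.7 and 13.7 in S302A_Ctrl, 22.1, 17.5 and 16.4 in WT_DEN, and 16.4, 12.2 and 58.8 in S302A_DEN. Its knock-in difference for DEN of 0.57 became -0.09 without S302A_DEN replicate 3, while its wild-type groups were separated at 15.5 TPM and 16.4 TPM.

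Replicate 3 of S302A_DEN had higher values than both other S302A_DEN libraries for all 45 members, as for 10539 of 12120 tested genes. Its excess over their mean had a median of 0.65 on the log2 scale over the members, beside 0.79 over all tested genes, and 30 members lay below that all-gene median. The extremes were Psmg4 (0.17) and Psmd5 (1.98), followed by Psmd8 (1.46), Psme1 (1.25) and Psmb10 (1.12). By role the ATPase genes had the smallest median excess (0.46) and the 4 activators one of 0.87. Once libraries were scaled by median of ratios, 11 members lay above the mean of replicates 1 and 2, as did 6027 of 12120 tested genes. The median excess was then -0.26 over the members, beside -0.0034 over all tested genes. In TPM as deposited, replicate 3 was the highest of all 12 libraries for 41 members, as for 8577 of the 12120 tested genes. WT_DEN replicate 1 was above both other WT_DEN libraries for 44 members and 7574 of all tested genes, and WT_Ctrl replicate 1 was above both others of its group for 40 members and 8315 of all tested genes.

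**Figure D5:**
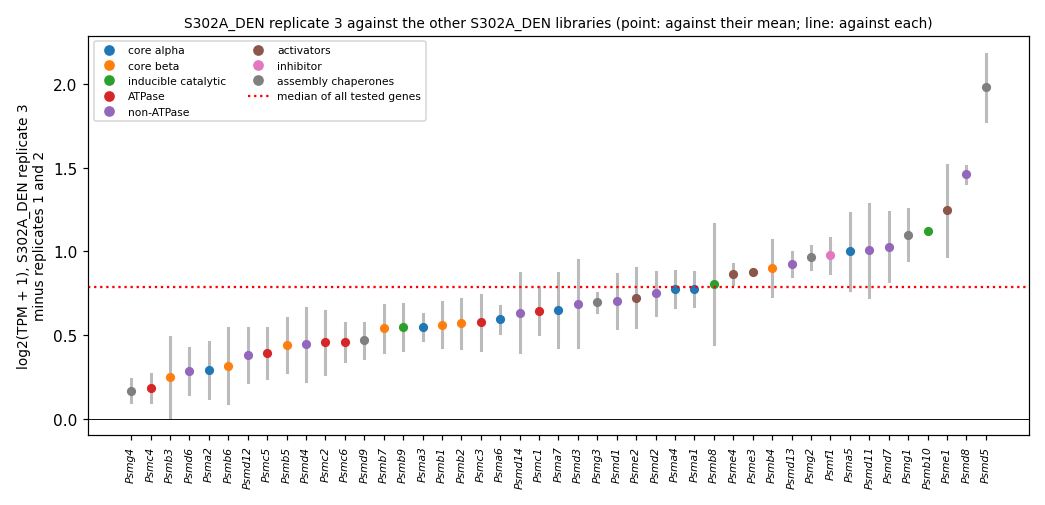
Log2(TPM + 1) of S302A_DEN replicate 3 minus the mean of replicates 1 and 2 for each member, sorted and coloured by role, with a grey line spanning the difference from each of them and a dotted line at the median of all tested genes (0.79). All 45 points are above 0, 30 of them below the dotted line, and Psmd5 (1.98) is the farthest out.

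The SD over the 12 libraries had a median of 0.27 (log2) over the members, against 0.34 over all tested genes and 0.35 over the 4840 tested genes at least as abundant as the lowest member. Measured against the median member of the same library, the median SD was 0.14, and 38 members stayed under 0.2. This SD leaves out the shift that members of a library share, and it was not computed for other genes. Psmc1 (0.042), Psmb2 (0.060) and Psmd1 (0.076) tracked the library most closely. Psmb9 (0.50), Psmd5 (0.37), Psmb8 (0.35), Psmb10 (0.29) and Psmd8 (0.25) did so least, so all 3 inducible genes were among the 5 loosest. These SDs are descriptions of the same libraries, in which the members share each library's scaling.

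Genes that work with the proteasome were read the same way, from lists chosen with earlier results of these data known, and none of their genes passed an adjusted p of 0.05 in the 4 group comparisons. The partners of assembly, ubiquitin recognition and delivery numbered 21 measured of 22 and had a median log2 difference of 0.28 for DEN in the knock-in with 19 higher, 0.15 for DEN in wild type with 16 higher, and -0.10 for the knock-in in untreated livers with 19 lower, and median-of-ratios scaling turned the DEN medians to -0.04 and -0.01. Pomp, the chaperone that matures the core, stood at 242, 172 and 187 TPM in WT_Ctrl, 168, 178 and 174 in S302A_Ctrl, 242, 227 and 247 in WT_DEN, and 238, 205 and 279 in S302A_DEN, and its DEN difference in the knock-in was 0.46 ± 0.18 (limma adjusted p = 0.259). Ubb, a polyubiquitin gene, stood at 433, 432 and 441 TPM in WT_Ctrl, 450.4, 337 and 418 in S302A_Ctrl, 612, 577 and 639 in WT_DEN, and 525, 511 and 1181 in S302A_DEN. All DEN-treated libraries of Ubb were above all untreated libraries of both genotypes, and the log2 difference was 0.48 ± 0.28 in wild type and 0.77 ± 0.28 in the knock-in (limma adjusted p = 0.723 and 0.217). The 5 ubiquitin genes had medians of 0.21 and 0.62 for DEN in wild type and the knock-in, and -0.02 and 0.44 after quantile normalization.

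Of 7 regulators of proteasome transcription, 6 were higher after DEN in wild type (median 0.30) and 4 in the knock-in (median 0.24, or -0.07 after median-of-ratios scaling). Nfe2l1, the factor that drives proteasome genes when the proteasome is inhibited, stood at 27.9, 21.2 and 18.6 TPM in WT_Ctrl, 22.3, 22.2 and 16.7 in S302A_Ctrl, 32.03, 29.8 and 29.8 in WT_DEN, and 21.5, 15.03 and 42.7 in S302A_DEN, with 0.44 ± 0.31 for DEN in wild type (limma adjusted p = 0.827). The 11 genes of MHC class I presentation, which receive the proteasome's peptides, were all higher after DEN in the knock-in with a median of 0.53. Of all tested genes 79.3% were higher there, and the list's knock-in median after scaling or without S302A_DEN replicate 3 is not given here. In wild type 8 of the 11 were higher with a median of 0.13, or 5 with a median of -0.04 after median-of-ratios scaling. H2-D1, a class I heavy chain, stood at 273, 199 and 213 TPM in WT_Ctrl, 199.6, 314 and 223 in S302A_Ctrl, 437, 317 and 367 in WT_DEN, and 470.5, 278 and 876 in S302A_DEN, with 1.01 ± 0.34 for DEN in the knock-in (limma adjusted p = 0.194). Smaller p-values there belonged to Pdia3 and Calr of this list, at 0.95 and 0.97 (limma adjusted p = 0.0634 and 0.0654). For DEN in wild type H2-K1 had the smallest p of the list, at 0.68 (limma adjusted p = 0.433). The 13 interferon response genes had medians of 0.44 for DEN in wild type and 0.93 in the knock-in, where all were higher, and -0.25 for the knock-in in untreated livers, where 11 were lower, and these signs held under both scalings and without S302A_DEN replicate 3. These signs matched those of Psmb8 in each of the 3 comparisons, but as deposited most members had the same signs. Psmg4, Psmg3, Psmb10 and Psme2 were among the other members that kept them after median-of-ratios scaling, while Psme1 did not (-0.05 for DEN in wild type). Psmb9 went the other way for DEN in wild type (-0.37), and no test of the match was made. The 13 NRF2 target genes had medians of 0.14 and 0.96 for DEN in wild type and the knock-in, -0.04 and 0.64 after median-of-ratios scaling and -0.20 in the knock-in without S302A_DEN replicate 3, and summed to 35759 TPM in S302A_DEN replicate 3 against 1589 to 3533 TPM elsewhere.

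Cell type markers varied beside these groups. For DEN in the knock-in the median differences were 0.34 for 7 leukocyte, 0.46 for 12 macrophage, 0.67 for 9 stellate, 1.11 for 2 cholangiocyte, 0.08 for 7 endothelial and -0.05 for 12 hepatocyte markers that could be tested. Without S302A_DEN replicate 3 the leukocyte and macrophage medians were -0.22 and -0.15. In wild type the same lists gave -0.14, 0.17, 0.06, 0.21, 0.33 and 0.34. For the knock-in in untreated livers they gave -0.04, 0.08, -0.04, 0.04, 0.13 and -0.03. Ptprc, the pan-leukocyte marker, was at or near the floor in most libraries, between 1 and 4.11 TPM, and at 11.8 TPM in S302A_DEN replicate 3. The part of cell makeup in the levels of Psmb8 and Psmb9, which leukocytes express strongly, was not tested.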

How the data were processed

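Per the labels, total liver RNA was isolated with RNeasy Plus Mini and sequenced from TruSeq libraries on a HiSeq instrument. The authors deposited TPM per gene symbol, and the submitters' processing notes name kallisto, a pseudoaligner, and mm10, with no version; the annotation is not given in the sources used here. No deposited value was below 1, so 1 was read as 1 or less. TPM keeps no sequencing depth, so depth and counting error are unknown.

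The 12120 genes above 1 TPM in at least 3 of 12 libraries were analysed as log2(TPM + 1), with a pseudocount of 1, in R 4.3.3 with limma 3.58.1: 1 linear model of the 4 groups, empirical Bayes with a mean-variance trend and 8 residual degrees of freedom. Tests were two-sided, with Benjamini-Hochberg adjustment over all genes and a threshold of 0.05. Differences understate low genes because of the pseudocount. The fit was tested on simulated data. Ratio tests were exact permutations.

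The members and lists were chosen with earlier results of these data known. The lists were partners of assembly, recognition and delivery, ubiquitin genes, transcription regulators, MHC class I presentation, interferon response, NRF2 targets, and markers of hepatocytes, leukocytes, macrophages, cholangiocytes, stellate and endothelial cells. Named singly were catalytic, inducible, activator, inhibitor, receptor and deubiquitinase members, those with extreme means, the 3 smallest p per contrast, and up to 4 genes of other lists per contrast. Psmc3, Psmd5, Psmd8 and the ratios were singled out after their values were seen. Alternatives were a pseudocount of 0.1, no filter, a filter of 5 TPM, median-of-ratios scaling, quantile normalization, the libraries of a contrast alone, a replicate block and leaving out each library. The labels name no sequencing batch, and no 2 libraries were identical.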

Additional observations from a re-analysis of the deposited data

How the results depend on the processing

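The absence of member calls held under a pseudocount of 0.1, no filter, a filter of 5 TPM, both scalings and the replicate block in the 7 contrasts, and with the libraries of a contrast alone in the 4 comparisons of a pair of groups, to which that setting applies. The replicate numbers were not treated as pairs in the main model. Same-numbered libraries correlated between -0.187 and 0.282 in their deviations (18 pairs, median 0.0605), beside a median of -0.0233 over 36 other pairs. Of 12 libraries 7 correlated best with their own number, and these values do not decide whether the numbers mark pairs. With the replicate block 0 members were called in every contrast and the median for DEN in S302A stayed at 0.41.

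Scaling moved member medians. For DEN in WT, quantile normalization gave -0.11. For DEN in S302A, median-of-ratios scaling gave 0.10 and quantile normalization 0.15. For the average DEN effect they gave 0.022 and 0.0045.

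Leaving out 1 library at a time, the median ranged from 0.06 to 0.23 for DEN in WT, from 0.14 to 0.60 for DEN in S302A, from -0.19 to -0.06 for S302A untreated, from -0.13 to 0.29 for S302A after DEN, from 0.0074 to 0.44 for the interaction, from 0.14 to 0.38 for the average DEN effect and from -0.14 to 0.07 for the average S302A effect. Calls ranged from 0 to 1 for DEN in S302A and from 0 to 2 for the average DEN effect, where Psmb8 (limma adjusted p = 0.0309) and Psmd7 (0.0465) passed without S302A_DEN replicate 2, as did 8.59% of all tested genes. Psme3 for S302A after DEN turned to -0.016 (adjusted p = 0.955) without S302A_DEN replicate 3 and was 0.43 without replicate 2, the range over libraries.

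A combination chosen after seeing the data, median-of-ratios scaling without S302A_DEN replicate 3, gave a member median of 0.13 and 2 calls for DEN in S302A (Psmc2, Psmg4 with adjusted p = 0.041), 1 for S302A after DEN (Psmc2, 0.0439) and 1 for the average DEN effect (Psmg4, 0.0303), beside 7.11%, 3.58% and 9.85% of all tested genes. In that setting the cause was not tested. The libraries' depth is unknown, and with 3 libraries a group the standard errors given limit what could be called.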
